A study of Homo sapiens with 24 samples.

Results

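Here 10 genes of polyamine metabolism were followed across 24 RNA-seq libraries of A549, a human lung adenocarcinoma cell line. They were chosen by name as the enzymes and regulators of the pathway, and they are 10 of the 60609 gene rows of the expression table. ODC1, AMD1, SRM and SMS make polyamines. SAT1, SMOX and PAOX break them down or mark them for export, and OAZ1, OAZ2 and AZIN1 regulate ODC1 protein. The low ODC1 level after interferon beta (IFN) in the control siRNA cells was known when the list was drawn up, so the IFN effect in those cells is given as a description, with no p.

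Cells were transfected with pooled siRNAs that target BOP1 (siBOP1), a factor in the assembly of the large ribosomal subunit, or siRNA against firefly luciferase (siFLuc), which has no target in human cells. After 48 h they were given 1000 U/mL of IFN or a mock treatment for 8 h or 12 h. The 8 groups of 3 libraries were therefore siFLuc mock, siFLuc IFN, siBOP1 mock and siBOP1 IFN at each time, and every cell in the study had been transfected. All libraries came from a single cell line, and nothing in the labels says that replicates were separate cultures, so p-values measure the spread between these libraries, which may be technical. Within each group the libraries carry the numbers 1, 2 and 4 in the table and are called by those numbers here.

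Polyamines are small, positively charged molecules that bind nucleic acids and are needed for cell growth. ODC1 makes putrescine from ornithine, and AMD1 makes the aminopropyl donor that SRM and SMS use to turn putrescine into spermidine and spermidine into spermine. SAT1 acetylates spermidine and spermine, PAOX oxidises the acetylated forms, and SMOX oxidises spermine directly. Antizymes bind ODC1 and send it to the proteasome, and AZIN1 binds antizymes in place of ODC1. Spermidine also supplies the hypusine residue of the translation factor eIF5A.

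Values are in TPM, a transcript abundance that divides reads by transcript length and scales each library to a fixed total. Column sums were 1000000 in all 24 libraries, so the sequencing depth behind each value is unknown. A share can fall because other RNAs rose, and in bulk RNA fewer cells with a transcript and less of it per cell cannot be told apart. BOP1 ranged from 10.0 to 19.5 TPM in the 12 siBOP1 libraries and from 32.4 to 78.8 TPM in the 12 siFLuc libraries, without overlap. KRT8 and KRT18, keratins of epithelial cells, were at 1785 TPM or more in every library, and 4 genes that are high in this KEAP1-mutant line (NQO1, AKR1C1, AKR1B10 and ALDH1A1) were at 484 TPM or more. CDKN2A, which is deleted in A549, was listed at 0 in 24 of 24. Of 9 markers of other cell types, CD3E was listed at 0 in every library, 6 were never above 0.345 TPM, and CD14 (1.81 to 5.26 TPM) and COL1A1 (5.37 to 19.3 TPM) were low throughout. The epithelial marker EPCAM was also low, at 1.92 to 5.48 TPM. Library number 4 stood apart from numbers 1 and 2: their shared difference passed limma adjusted p of 0.05 for 13.6% of genes at 8 h and 36.4% at 12 h.

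All 10 genes are protein coding, and all passed the filter of 1 TPM in at least 3 libraries, PAOX through only 7 of 24. By median over the 24 libraries SAT1 was the most abundant at 830 TPM, followed by OAZ1 at 482. SMOX (143 TPM), SMS (138), SRM (100.5), OAZ2 (72.4), AMD1 (63.4), ODC1 (60.4) and AZIN1 (44.2) came next, and PAOX was last at 0.683. Neighbours in this order had overlapping ranges over the 24 libraries, except OAZ1 with SMOX and AZIN1 with PAOX. When the 8 groups were ordered by their mean, 6 of 7 neighbouring pairs overlapped for ODC1, SAT1, AMD1, SMS and AZIN1, and 7 of 7 for the other genes. The gap lay between the mock and the IFN groups for ODC1 and SAT1, and between the 8 h mock groups and the rest for AMD1. In the GENCODE 29 annotation (GRCh38) ODC1 lies at chr2:10439968-10448504 on the minus strand, AMD1 at chr6:110874770-110895713 on the plus strand, SRM at chr1:11054584-11060024 on the minus strand and SMS at chrX:21940573-21994835 on the plus strand. SAT1 lies at chrX:23783173-23786226, SMOX at chr20:4120980-4187747 and PAOX at chr10:133379234-133391694, all on the plus strand. OAZ1 lies at chr19:2269509-2273490 on the plus strand, OAZ2 at chr15:64687573-64703281 and AZIN1 at chr8:102826357-102893864, both on the minus strand. The way reads common to a gene and its pseudogene or an overlapping neighbour were counted is not given in the sources used here.

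**Figure D1:**
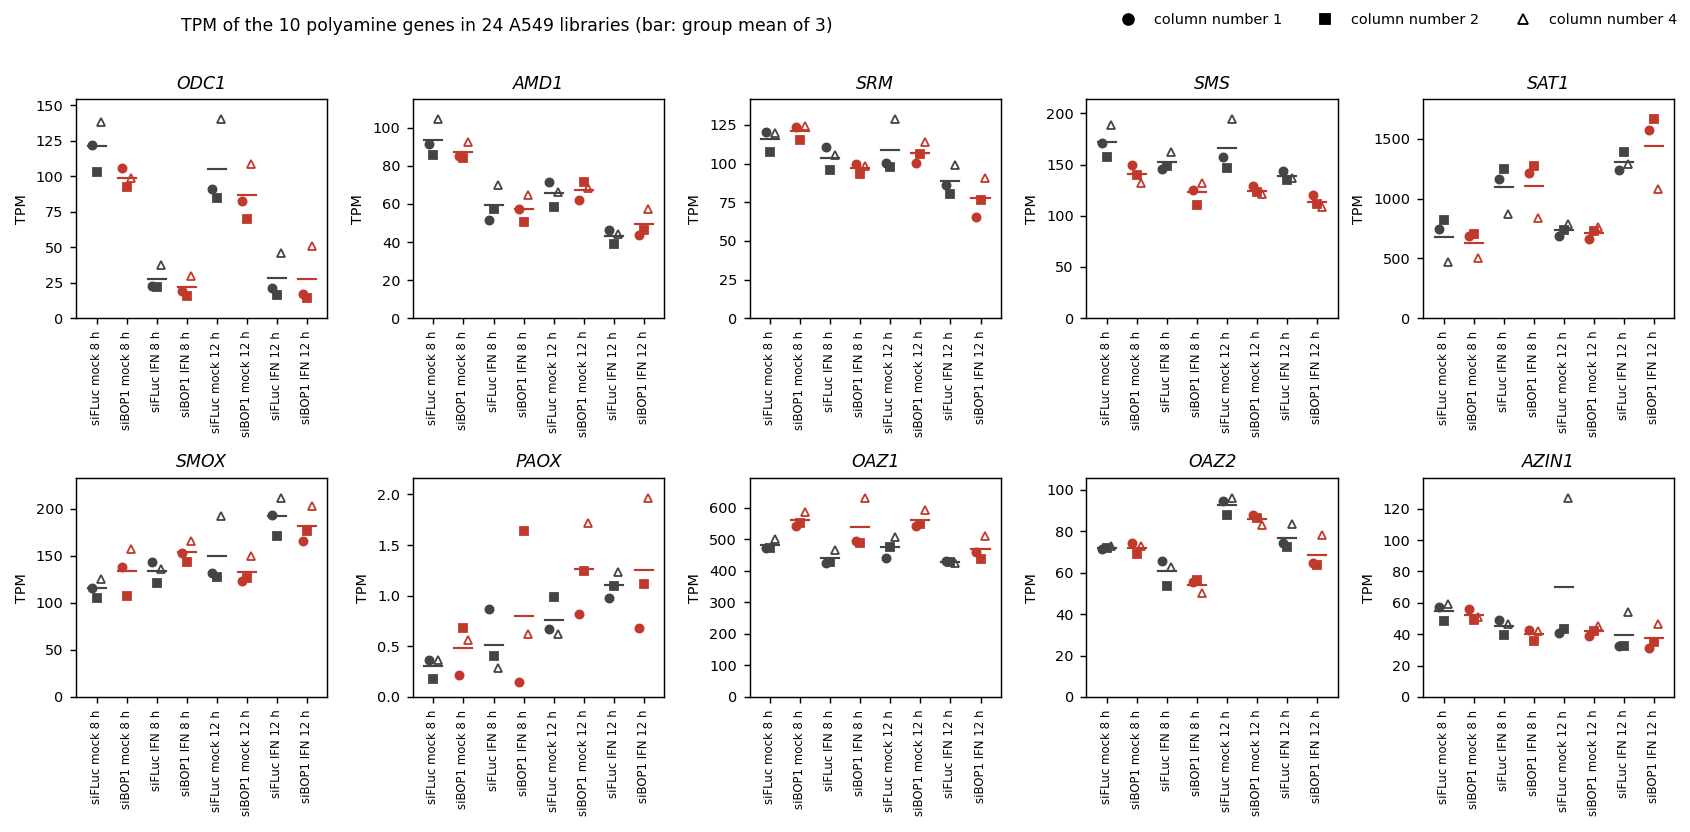
TPM of each of the 10 genes in each of 24 libraries (1 panel per gene, linear axis from 0), by group, with siFLuc in grey, siBOP1 in red, the library number as the symbol and the mean of 3 as a bar. ODC1 is lower and SAT1 higher in all 12 IFN libraries than in all 12 mock libraries, and AZIN1 has a single high library at 126.7 TPM.

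ODC1, AMD1 and SAT1 passed the test in siBOP1 cells at both times, with larger changes than OAZ2, which passed at both as well. DNA upstream of the start sites of ODC1, AMD1 and SAT1 is shown so that the motifs named can be seen. The stretches are the exon-free part of the 250 bases before each RefSeq start (GRCh38.p14), written 5′ to 3′ on the gene's strand, with GC boxes (GGGCGG or its complement CCGCCC) and CCAAT boxes (CCAAT or ATTGG) in capitals.
ODC1, chr2:10448505-10448577, minus strand: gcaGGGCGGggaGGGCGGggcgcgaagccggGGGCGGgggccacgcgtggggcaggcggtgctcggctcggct
AMD1, chr6:110874534-110874769, plus strand: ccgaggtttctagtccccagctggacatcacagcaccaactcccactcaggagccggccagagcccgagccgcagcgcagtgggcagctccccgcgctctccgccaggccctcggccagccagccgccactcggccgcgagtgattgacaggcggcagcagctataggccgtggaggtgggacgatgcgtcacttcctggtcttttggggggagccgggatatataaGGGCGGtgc
SAT1, chrX:23782957-23783172, plus strand: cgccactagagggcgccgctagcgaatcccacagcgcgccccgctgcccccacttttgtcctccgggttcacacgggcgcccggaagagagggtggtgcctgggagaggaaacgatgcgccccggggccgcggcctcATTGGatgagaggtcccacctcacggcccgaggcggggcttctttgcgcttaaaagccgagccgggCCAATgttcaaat
Each whole window of 250 bases before and 50 after the start was searched on both strands. The ODC1 stretch, which does not reach its RefSeq start at 10448327, holds 3 GC boxes. Outside that stretch the ODC1 window holds further GC boxes at -115, 29 and 36 from the start. AMD1 has 1 just before its start, and SAT1 has none but holds 2 CCAAT boxes. GC boxes are in 45.0% and CCAAT boxes in 34.6% of 35116 RefSeq promoter windows of that length.

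Of the 10 genes, 7 had a promoter window in the RefSeq table, and SMOX, PAOX and AZIN1 had none. ODC1 had 2 windows and AMD1 had 3, and only the one whose start lay nearest the GENCODE gene start was searched. Among the 7 windows searched, the core letters of the interferon-stimulated response element (GAAA, any pair of bases, then GAAA, in 3.57% of all windows) matched in OAZ1 alone, as 2 overlapping matches on the minus strand. None of the 7 searched holds the gamma-activated site TTCNNNGAA, which 7.66% of all windows have. Among them SRM alone holds the E-box CACGTG, present in 7.26% of windows. A match or its absence describes these letters only.

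ODC1, the enzyme that starts polyamine synthesis, was lower with IFN in every group. In siFLuc cells at 8 h it stood at 122, 103 and 138 TPM in mock libraries 1, 2 and 4 and at 22.7, 22.1 and 37.3 TPM with IFN. At 12 h the siFLuc values were 91.1, 85.0 and 140.1 TPM in mock and 21.5, 16.7 and 46.0 TPM with IFN. The groups did not overlap at either time, and the log2 changes were -2.14 ± 0.38 and -1.97 ± 0.38 (SE, n = 3 per group). In siBOP1 cells ODC1 went from 106, 92.4 and 98.8 TPM to 19.3, 15.9 and 29.9 TPM at 8 h. At 12 h it went from 82.7, 69.8 and 109 TPM to 17.2, 14.2 and 51.0 TPM. All 12 IFN libraries, at 14.2 to 51.0 TPM, thus lay below all 12 mock libraries, at 69.8 to 140.1 TPM. ODC1 fell by 2.19 ± 0.38 on the log2 scale at 8 h (limma adjusted p = 0.000306) and by 1.83 ± 0.38 at 12 h (limma adjusted p = 0.0018) in siBOP1 cells. The 12 h call was lost when only the siBOP1 mock and IFN groups of that time entered the fit (limma adjusted p = 0.0538, within a range of 1.49e-08 to 0.0538 over all alternatives).

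The IFN change of ODC1 was smaller in library number 4 than in numbers 1 and 2 in each of the 4 comparisons. In siBOP1 cells at 12 h it was -2.20, -2.22 and -1.08 in numbers 1, 2 and 4, and at 8 h it was -2.40, -2.47 and -1.69. Number 4 held the highest ODC1 value in 4 of 4 groups at 12 h and in 3 of 4 at 8 h. Averaged over groups, ODC1 was higher in number 4 than in numbers 1 and 2 by 1.01 ± 0.16 on the log2 scale at 12 h (limma adjusted p = 0.000836).

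**Figure D2:**
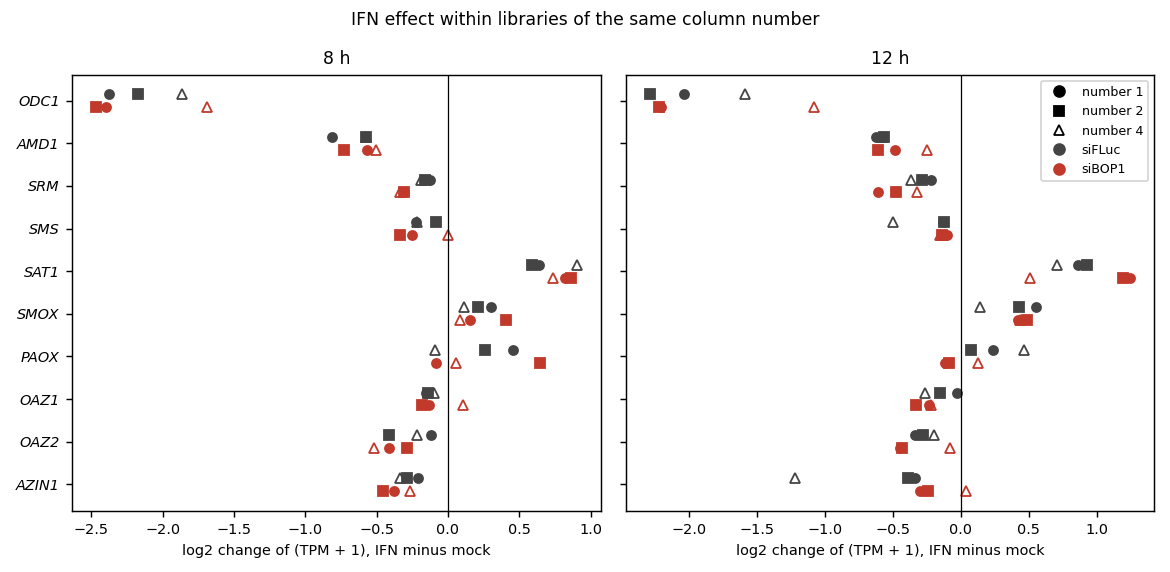
IFN change of each of the 10 genes within libraries of the same number, as log2 of (TPM + 1), IFN minus mock, at 8 h (left) and 12 h (right), with siFLuc in grey and siBOP1 in red. ODC1 is negative and SAT1 positive for every number, and ODC1 lies nearest to 0 in number 4 (open triangles) in all 4 comparisons.

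AMD1, the decarboxylase that supplies aminopropyl groups, was also lower with IFN in all 4 comparisons, without overlap. In siFLuc cells it went from 91.3, 85.7 and 104 TPM to 51.4, 57.2 and 69.8 TPM at 8 h. At 12 h it went from 71.7, 58.6 and 66.5 TPM to 46.2, 39.2 and 44.0 TPM. These are log2 changes of -0.66 and -0.59 (SE 0.13 each), well under the change of ODC1 in size. In siBOP1 cells AMD1 went from 85.4, 84.0 and 92.4 TPM to 57.2, 50.4 and 64.8 TPM at 8 h. At 12 h it went from 61.9, 71.4 and 68.1 TPM to 43.9, 46.5 and 57.3 TPM, again with each IFN library below each mock library. AMD1 fell by 0.60 at 8 h (limma adjusted p = 0.00197) and by 0.45 at 12 h (limma adjusted p = 0.0184). The 12 h call was lost without siBOP1 mock 2, mock 4, IFN 1 or IFN 2 (limma adjusted p of 0.0803, 0.0518, 0.0996 and 0.0793), and in the fit of these groups alone (0.0651). The range over all alternatives was 0.00217 to 0.0996.

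The aminopropyl transferases moved less. SRM, spermidine synthase, averaged 116 ± 7.54 TPM in siFLuc mock and 104 ± 7.34 TPM in siFLuc IFN at 8 h, and 109 ± 17.0 and 88.5 ± 9.77 TPM at 12 h (SD, n = 3). In siBOP1 cells at 8 h it was 124, 115 and 124 TPM in mock and 99.8, 92.9 and 98.1 TPM with IFN. At 12 h the siBOP1 values were 100.3, 106 and 114 TPM in mock and 65.5, 76.2 and 90.8 TPM with IFN. Both siBOP1 pairs of groups were separate, whereas both siFLuc pairs overlapped. SRM fell by 0.47 ± 0.11 in siBOP1 cells at 12 h (limma adjusted p = 0.00708), a call lost without IFN library 1 (limma adjusted p = 0.0611) and in the fit of these groups alone (0.0682, range over all alternatives 3e-05 to 0.0682). At 8 h the change was -0.32 ± 0.11 (limma adjusted p = 0.0683), and with the library number as a block it passed (limma adjusted p = 0.00123, range over all alternatives 0.00123 to 0.216). SMS, spermine synthase, changed by -0.18, -0.25, -0.19 and -0.13 (SE 0.10) in siFLuc at 8 h and 12 h and siBOP1 at 8 h and 12 h. Neither SMS change in siBOP1 cells passed (limma adjusted p of 0.194 and 0.407). At 8 h SMS did pass under quantile normalization (limma adjusted p = 0.0329) and with numbers 1 and 2 only, without and with the block (0.0196 and 0.00435), in a range over all alternatives of 0.00435 to 0.889. Over those alternatives the 8 h change of SMS in siBOP1 cells ran from -0.291 to -0.035.

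SAT1, which acetylates spermidine and spermine, moved the other way. In siFLuc cells it went from 749, 825 and 467 TPM in mock to 1164, 1244 and 874 TPM with IFN at 8 h. At 12 h it went from 685, 734 and 789.8 TPM to 1243, 1392 and 1290.5 TPM. The groups did not overlap, and the log2 changes were 0.71 and 0.83 (SE 0.20 each). In siBOP1 cells SAT1 went from 686, 701 and 502 TPM to 1210.1, 1275 and 836 TPM at 8 h. At 12 h it went from 662, 726 and 760 TPM to 1570.5, 1663 and 1081 TPM. Every one of the 12 IFN libraries, from 836 TPM upwards, lay above every mock library, which reached 825 TPM. SAT1 rose by 0.81 ± 0.20 at 8 h (limma adjusted p = 0.00856) and by 0.98 ± 0.20 at 12 h (limma adjusted p = 0.00168) in siBOP1 cells. The 8 h call was lost without mock library 4, with a change of 0.65 (limma adjusted p = 0.0611), and without IFN library 2, with 0.69 (limma adjusted p = 0.0569), in a range of 2.05e-07 to 0.0611 over all alternatives. Number 4 held the lowest SAT1 value of its group in 4 of 4 groups at 8 h, by 0.56 on the log2 scale on average, while at 12 h it was lowest in 1 of 4.

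SMOX, spermine oxidase, was higher with IFN on average in all 4 comparisons, and in siFLuc cells its log2 changes were 0.21 (8 h) and 0.37 (12 h), with an SE of 0.15. In siBOP1 cells at 8 h it was 138, 108 and 157 TPM in mock and 154, 143 and 166 TPM with IFN, and these overlapped (log2 change 0.22, limma adjusted p = 0.365, range over all alternatives 0.0219 to 0.825). At 12 h it was 124, 126 and 150.0 TPM in mock and 166, 177 and 203 TPM with IFN, the only SMOX pair of groups without overlap. SMOX rose by 0.45 ± 0.15 there (limma adjusted p = 0.046). Leaving out any of mock 1, mock 2, IFN 1, IFN 2 or IFN 4 ended that call (limma adjusted p of 0.149, 0.137, 0.0567, 0.0977 and 0.142), and so did the fit of these groups alone (0.0511), no filter (0.0959), quantile normalization (0.0569) and a fit without the mean-variance trend (0.0649). PAOX, the acetylpolyamine oxidase, lay between 0.149 and 1.96 TPM and reached 1 TPM in 7 libraries. Its IFN changes of 0.20 and -0.03 in siBOP1 cells (SE 0.26) did not pass (limma adjusted p of 0.654 and 0.972).

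**Figure D3:**
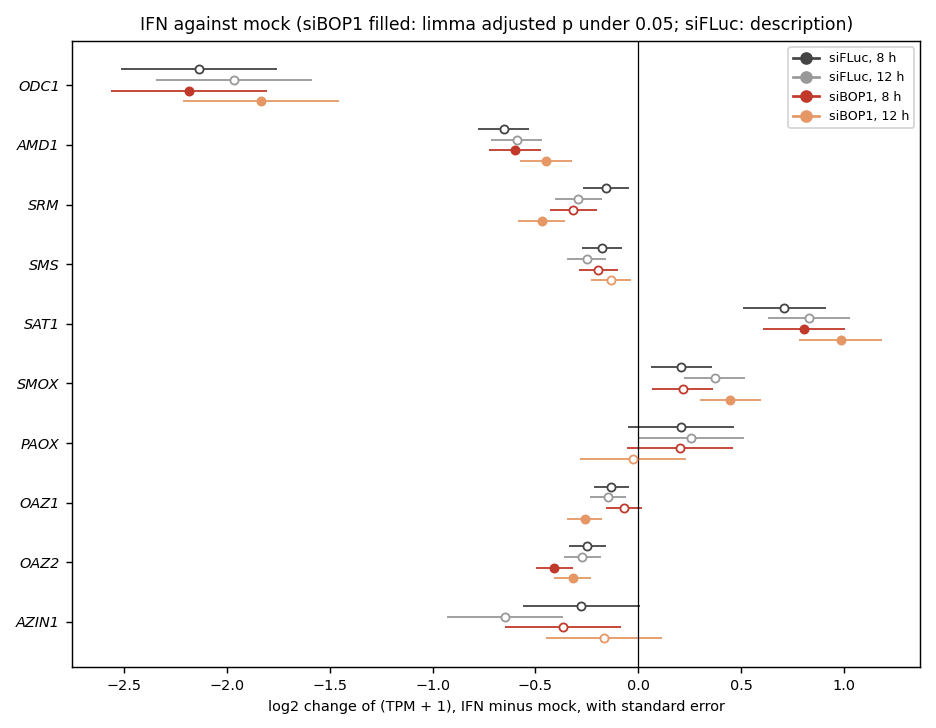
IFN change of the 10 genes in each siRNA and time, as log2 of (TPM + 1), IFN minus mock, with its standard error from limma (n = 3 per group) and, for siBOP1, filled where limma adjusted p is under 0.05. ODC1 and AMD1 lie left of 0 and SAT1 right of 0 in all 4 comparisons, and the siFLuc points are open throughout because they are a description.

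OAZ1, the major antizyme, was the most abundant of the regulators at 424 to 631 TPM. In siBOP1 cells at 12 h it was 543, 548.9 and 593 TPM in mock and 461, 437 and 510 TPM with IFN, without overlap, and it fell by 0.26 ± 0.09 (limma adjusted p = 0.0464). Leaving out mock 1, mock 2, mock 4, IFN 1 or IFN 2 ended the call (limma adjusted p of 0.0725, 0.0849, 0.157, 0.124 and 0.203), as did the fit of these groups alone (0.0861), no filter (0.0803), median-of-ratios rescaling (0.216) and a fit without the trend (0.0904). Its other IFN changes were -0.13 and -0.15 in siFLuc cells and -0.07 in siBOP1 cells at 8 h (limma adjusted p = 0.645). That last value turned positive, to 0.09, under median-of-ratios rescaling (limma adjusted p = 0.636, range over all alternatives 0.0414 to 0.982). There, the median change over all genes tested was -0.14 in TPM and -0.01 after rescaling, and the split of calls went from 962 higher and 1464 lower to 1324 higher and 698 lower.

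OAZ2, a second antizyme, was lower with IFN in all 4 comparisons, without overlap. In siFLuc cells its log2 changes were -0.25 and -0.27 (SE 0.09). In siBOP1 cells it went from 74.3, 69.1 and 72.7 TPM to 55.5, 56.4 and 50.4 TPM at 8 h, and from 88.0, 86.2 and 82.8 TPM to 64.4, 63.7 and 78.1 TPM at 12 h. OAZ2 fell by 0.41 ± 0.09 at 8 h (limma adjusted p = 0.00324) and by 0.32 ± 0.09 at 12 h (limma adjusted p = 0.0195). The 12 h call was lost without mock 1, mock 2, IFN 1 or IFN 2 (limma adjusted p of 0.0714, 0.0605, 0.0932 and 0.109) and in the fit of these groups alone (0.0922). Over all alternatives the 8 h change ran from -0.439 to -0.25 (limma adjusted p of 0.000664 to 0.0253). The 12 h change was -0.44 and -0.43 in numbers 1 and 2 and -0.08 in number 4 (range over all alternatives 0.00194 to 0.109). AZIN1, the antizyme inhibitor, changed by -0.37 and -0.17 in siBOP1 cells (SE 0.28, limma adjusted p of 0.426 and 0.772). Its 8 h change passed with numbers 1 and 2 only, without and with the block (limma adjusted p of 0.0322 and 0.00121), and in the fit of these groups alone (0.0495), in a range of 0.00121 to 0.675. Its 12 h change passed with numbers 1 and 2 only and the block (limma adjusted p = 0.0118, range 0.0118 to 0.962). In siFLuc cells at 12 h it stood at 41.1, 43.1 and 126.7 TPM in mock and at 32.2, 32.7 and 54.0 TPM with IFN, so that the change of -0.65 combined -0.34 and -0.39 in numbers 1 and 2 with -1.22 in number 4. The siFLuc mock 12 h library 4 held the highest value of all 24 libraries for 5 of the 10 genes (ODC1, SRM, SMS, OAZ2 and AZIN1). How many of all genes were highest in that library was not counted, and number 4 differed from numbers 1 and 2 for 36.4% of them at 12 h.

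Counted over the list, 4 of 10 genes passed in siBOP1 cells at 8 h, where 15.1% of all genes tested did: SAT1 higher, and ODC1, AMD1 and OAZ2 lower. At 12 h 7 of 10 passed, where 14.8% of all genes did, with SAT1 and SMOX higher and ODC1, AMD1, SRM, OAZ1 and OAZ2 lower. This count fell to between 2 and 6 with 1 of the libraries compared left out, and to 1 (SAT1) when only the groups compared entered the fit. The median change of the 10 was -0.26 at 8 h and -0.21 at 12 h, against -0.14 and -0.08 over all genes. In siFLuc cells, as a description, 3 of 10 were past the threshold at 8 h (10.8% of all genes) and 4 of 10 at 12 h (13.5%). With the library number as a block the counts were 4 and 8, where 21% and 26.9% of all genes passed. These siFLuc counts include ODC1, whose low level there was known when the list was drawn up. They test nothing and lend no support to the siBOP1 counts. The siBOP1 counts include ODC1 as well, and the list was chosen with earlier results of these data known. Set against the share of all genes, the siBOP1 counts therefore describe the list and do not test it.

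The ratio of SAT1 to ODC1 set the acetylating enzyme against the first synthetic enzyme within each library. It ran from 3.38 to 10.4 (median 7.26) in mock and from 21.2 to 117 (median 57.1) in IFN libraries, without overlap. The ratio of OAZ1 to ODC1 ran from 3.62 to 7.87 (median 5.29) in mock and from 9.21 to 30.8 (median 20.6) with IFN. Both ratios include the fall of ODC1, also in the siFLuc libraries, where it was known beforehand. SAT1 and ODC1 each already separated IFN from mock libraries, in opposite directions. The separation of the ratio of SAT1 to ODC1 follows from this and adds no support. In siBOP1 cells at 12 h with IFN the ratio of SAT1 to ODC1 was lowest, at 21.2, in library 4, which had the highest ODC1 and the lowest SAT1 of that group.

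**Figure D4:**
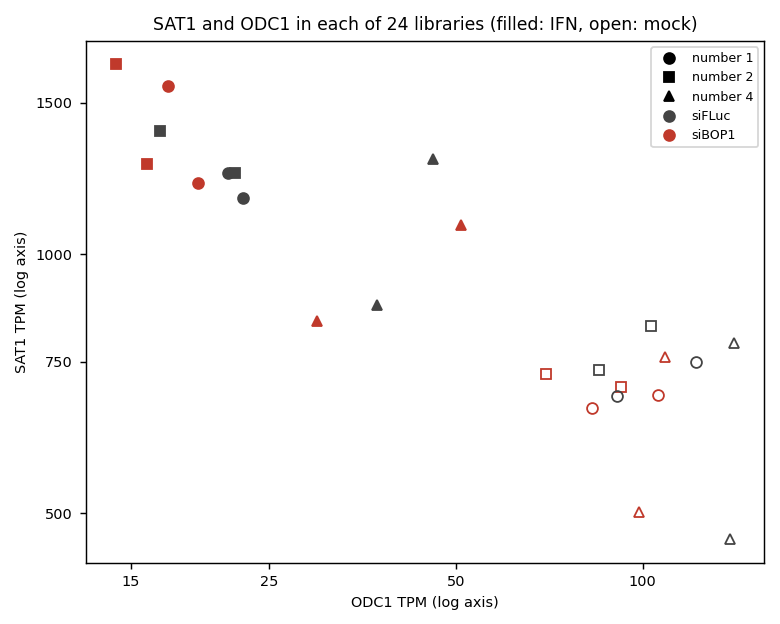
SAT1 against ODC1, both in TPM on log axes, in each of 24 libraries, filled for IFN and open for mock, with siFLuc in grey, siBOP1 in red and the library number as the symbol. IFN and mock libraries are separate on both axes, with ODC1 at 14.2 to 51.0 against 69.8 to 140.1 TPM.

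Few of all genes tested passed with the siRNA against BOP1 (0.66% to 2.16% in the 4 comparisons). Few calls among the 10 genes are therefore no result about these genes. SMS was lower in siBOP1 than in siFLuc cells in all 4 comparisons, without overlap. In mock cells at 12 h it was 158, 147 and 194 TPM with siFLuc and 129, 123 and 121 TPM with siBOP1. There SMS fell by 0.41 ± 0.10 (limma adjusted p = 0.0352), the 1 gene of 10 that passed, where 1.6% of all genes did. The call was lost without siBOP1 mock 1, 2 or 4 (limma adjusted p of 0.0727, 0.116 and 0.143) or siFLuc mock 1 or 4 (0.0618 and 0.152), in the fit of these groups alone (0.326), with no filter (0.0559), without the trend (0.071) and with numbers 1 and 2 only (0.12). In mock cells at 8 h SMS was 171, 158 and 189 TPM with siFLuc and 149, 139 and 132 TPM with siBOP1. This change of -0.29 (limma adjusted p = 0.136) passed with the library number as a block (limma adjusted p = 0.0434, range over all alternatives 0.0413 to 0.424). With IFN the SMS changes were -0.31 at 8 h (limma adjusted p = 0.103, blocked 0.0319, range 0.013 to 0.389) and -0.29 at 12 h (limma adjusted p = 0.25).

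OAZ1 was higher in siBOP1 than in siFLuc cells in all 4 comparisons, also without overlap. In mock cells at 8 h it was 474, 471 and 501 TPM with siFLuc and 542, 553 and 587 TPM with siBOP1. In mock cells at 12 h it was 441, 476 and 509 TPM with siFLuc and 543, 548.9 and 593 TPM with siBOP1. With IFN at 8 h it was 426, 428 and 467 TPM against 495, 488 and 631 TPM. The log2 changes of OAZ1 were 0.22, 0.24 and 0.28 in these comparisons and 0.13 with IFN at 12 h (SE 0.09), and none passed (limma adjusted p of 0.244, 0.204, 0.103 and 0.765). With the library number as a block the first 3 did (limma adjusted p of 0.034, 0.0223 and 0.00905), with ranges over all alternatives of 0.034 to 0.536, 0.0223 to 0.456 and 0.00905 to 0.392. In the other comparisons of siRNAs, 0 of 10 genes passed by limma in mock cells at 8 h (2.16% of all genes), with IFN at 8 h (2% of all genes) and with IFN at 12 h (0.66% of all genes). At an unadjusted p under 0.05 these held 2, 2 and 1 of the 10, and with the block 2, 2 and 0 passed, where 8.49%, 8.81% and 3.77% of all genes did. In mock cells at 12 h the block gave 2 of 10, where 7.66% of all genes passed.

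ODC1 was lower on average with siBOP1 in each comparison, by log2 changes of -0.28 and -0.26 in mock and -0.33 and -0.13 with IFN (8 h and 12 h), but the values overlapped and limma adjusted p was 0.803 or more. The 95% interval of the 8 h mock change of ODC1 ran from -1.07 to 0.51. For SAT1 the siRNA changes lay between -0.09 and 0.11, and for AMD1 between -0.10 and 0.18. The difference in IFN effect between siBOP1 and siFLuc cells was -0.05 for ODC1 at 8 h (95% interval -1.16 to 1.07) and 0.13 at 12 h (-0.98 to 1.25). For SAT1 it was 0.10 at 8 h (-0.50 to 0.69) and 0.15 at 12 h (-0.44 to 0.75), and for AMD1 0.05 (-0.31 to 0.42) and 0.14 (-0.23 to 0.51). None of the 10 differences passed by limma at either time, where 0% of all genes did, none had an unadjusted p under 0.05, and none passed with the block. These intervals do not show that the effects were alike.

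**Figure D5:**
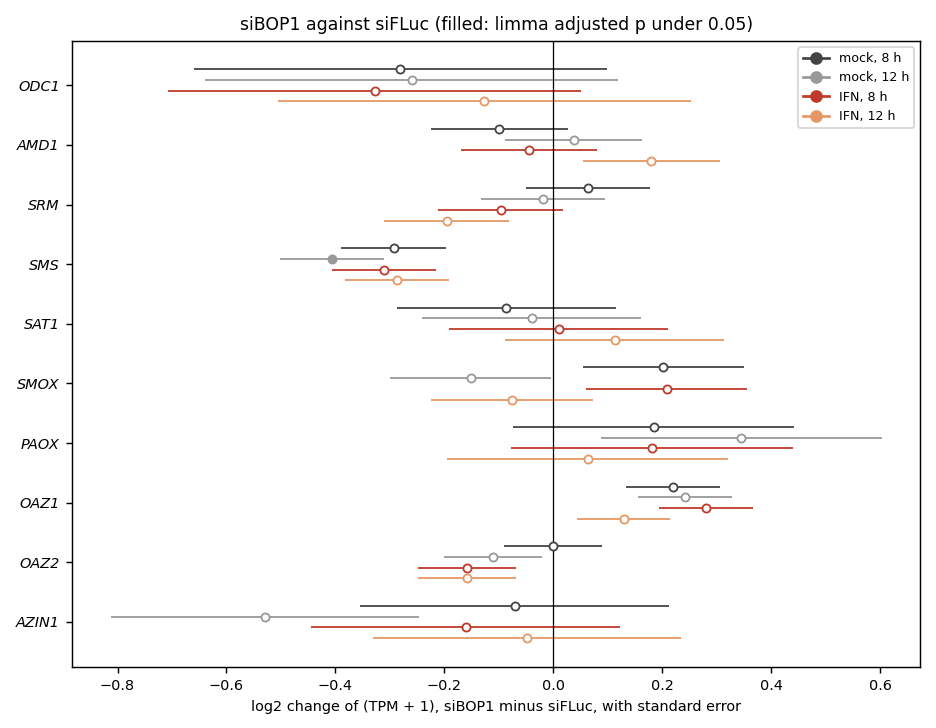
Change of the 10 genes with the BOP1 siRNA, as log2 of (TPM + 1), siBOP1 minus siFLuc, with its standard error from limma (n = 3 per group), in mock and IFN cells at 8 h and 12 h, filled where limma adjusted p is under 0.05. SMS lies left and OAZ1 right of 0 in all 4 comparisons, and 1 point is filled, SMS in mock cells at 12 h.

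OAZ2 was higher at 12 h than at 8 h in all 4 combinations of siRNA and treatment, without overlap. In siFLuc mock cells it went from 71.4, 71.8 and 72.8 TPM to 94.3, 87.6 and 95.9 TPM. In siFLuc IFN cells it went from 65.8, 53.6 and 62.6 TPM to 74.3, 72.1 and 83.5 TPM. OAZ2 rose by 0.34 in siFLuc IFN cells (limma adjusted p = 0.0439) and by 0.34 in siBOP1 IFN cells (limma adjusted p = 0.0468), the 1 gene of 10 that passed in each, where 3.53% and 2.96% of all genes did. The OAZ2 calls ended on leaving out 5 and 6 of the single libraries compared, respectively, as well as in 5 and 6 of the other alternatives. With the block 4 of 10 passed in each, where 18.3% and 15% of all genes did. The block was fitted within each time. It took spread between numbers out of the error, although a comparison of times may still hold that spread. Blocked p-values for time, here and below, can therefore be too small, and a pass by them is weak. In siFLuc mock cells the change of 0.36 did not pass by limma and did with the block (limma adjusted p = 0.0114, range over all alternatives 0.0114 to 0.568).

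AMD1 was lower at 12 h than at 8 h by log2 changes of -0.51 in siFLuc mock, -0.45 in siFLuc IFN, -0.37 in siBOP1 mock and -0.22 in siBOP1 IFN cells. None passed by limma. With the library number as a block, under the limit given above, the first 3 did (limma adjusted p of 0.00581, 0.00499 and 0.0349, with ranges over all alternatives of 0.00581 to 0.568, 0.00499 to 0.239 and 0.0349 to 0.608). The siFLuc IFN change of AMD1 also passed without IFN library 1 of 8 h (limma adjusted p = 0.032). In mock cells 0 of 10 genes passed with time in siFLuc (0.131% of all genes) and siBOP1 (0.23% of all genes). At an unadjusted p under 0.05 there were 3 of 10 in each: AMD1, SMOX and OAZ2 in siFLuc, and AMD1, PAOX and OAZ2 in siBOP1. PAOX entered the fit almost only through 12 h libraries: at 8 h siBOP1 IFN library 2 alone reached 1 TPM. Its time p is therefore no support. With the block 3 and 1 passed, where 8.37% and 4.5% of all genes did.

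SMOX went from 144, 121 and 136 TPM at 8 h to 193, 171 and 211 TPM at 12 h in siFLuc IFN cells, without overlap. This change of 0.52 did not pass by limma (adjusted p = 0.0551) and did with the block (limma adjusted p = 0.000727, range over all alternatives 0.000727 to 0.194). In siFLuc mock cells the SMOX change of 0.36 also passed with the block (limma adjusted p = 0.0161, range 0.0161 to 0.7). SRM, at 99.8, 92.9 and 98.1 TPM at 8 h and 65.5, 76.2 and 90.8 TPM at 12 h in siBOP1 IFN cells, did not overlap either. Its change of -0.33 did not pass by limma (adjusted p = 0.122) and did with the block (limma adjusted p = 0.00289, range 0.0028 to 0.348), and also without IFN library 4 of 12 h (limma adjusted p = 0.0451). The other changes that the block added were SRM in siFLuc IFN cells (-0.23, limma adjusted p = 0.0192, range 0.0188 to 0.507), SAT1 in siBOP1 IFN cells (0.38, limma adjusted p = 0.0322, range 0.00136 to 0.784) and OAZ1 in siBOP1 IFN cells (-0.19, limma adjusted p = 0.0444, range 0.0444 to 0.774).

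The IFN effect of ODC1 differed between 12 h and 8 h by 0.17 in siFLuc (95% interval -0.95 to 1.29) and by 0.35 in siBOP1 cells (-0.77 to 1.47). For no gene of the 10 did this difference pass by limma, where 0.00623% and 0% of all genes did, and none had an unadjusted p under 0.05.

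Another 28 genes linked to the pathway were listed with earlier results known, and 23 passed the filter. At 8 h with IFN in siBOP1 cells 2 of the 23 rose and 4 fell, where 15.1% of all genes passed, and at 12 h 2 rose and 4 fell, where 14.8% of all genes passed. ATP13A3, a transporter of the polyamine uptake system, ranged from 34.9 to 58.7 TPM in the 12 mock libraries and from 19.5 to 36.1 TPM in the 12 IFN libraries. It fell by 0.77 at 8 h (limma adjusted p = 5.26e-05) and by 0.74 at 12 h (limma adjusted p = 8.83e-05). SAT2, a paralog of SAT1, fell by 0.61 and 0.71 (limma adjusted p of 0.00159 and 0.000328), opposite in sign to SAT1. OAT, which interconverts ornithine and a glutamate derivative, fell by 0.46 and 0.54 (limma adjusted p of 0.0125 and 0.00405). AHCY, which clears S-adenosylhomocysteine, fell by 0.26 and 0.50 (limma adjusted p of 0.0361 and 0.000138).

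SLC18B1, a vesicular polyamine transporter, ranged from 6.36 to 9.97 TPM in mock and from 9.94 to 16.1 TPM in IFN libraries. It rose by 0.74 at 8 h and 0.68 at 12 h in siBOP1 cells (limma adjusted p of 0.00236 and 0.00477). MAT2B, the regulatory subunit of the enzyme that makes S-adenosylmethionine, rose by 0.52 at 8 h (limma adjusted p = 0.0363) and had a change of 0.44 at 12 h (limma adjusted p = 0.081). AZIN2, a low-level antizyme inhibitor at 0.561 to 4.74 TPM, rose by 0.95 at 12 h (limma adjusted p = 0.0056) and had a change of 0.55 at 8 h (limma adjusted p = 0.113). Of the 4 hypusine genes 0 passed by limma with IFN in siBOP1 cells at either time, and none had an unadjusted p under 0.05. With the BOP1 siRNA, 0 of 23 passed by limma in any comparison, where 2.16%, 1.6%, 2% and 0.66% of all genes did (mock at 8 h and 12 h, IFN at 8 h and 12 h), with 3 or 4 of them at an unadjusted p under 0.05 in each.

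Genes whose log2 values followed ODC1 most closely were ranked by Pearson's r over the 24 libraries among 10598 genes, and these libraries share the split between mock and IFN. SLC26A2 (r = 0.961), GPATCH11 (0.957), SGCD (0.956), RWDD4 (0.949) and EMD (0.945) came first. For all 5, each of the 12 IFN libraries lay below each of the 12 mock libraries: SLC26A2, a sulfate transporter, ranged from 6.15 to 9.66 TPM in mock and from 2.69 to 5.80 TPM in IFN libraries. They were picked for likeness to ODC1, which was itself separate, so their separation is no further support. The share of all genes that separate in this way was not counted. SLC44A1 (0.952), STAU1 (0.941), EDN1 (0.939), TCIM (0.939) and RNF122 (0.933) were most like SAT1. SLC44A1, a choline transporter, ranged from 17.9 to 23.4 TPM in mock and from 22.8 to 35.0 TPM in IFN libraries. These ranges overlapped, as did those of STAU1, TCIM and RNF122. EDN1 was separate, at 36.8 to 53.3 TPM in mock and 56.5 to 77.6 TPM in IFN libraries.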

How the data were processed

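Total RNA was extracted with TRIzol and a column kit with DNase treatment and made into stranded mRNA libraries, per the labels' protocols. The authors deposited 1 table of TPM values with versioned Ensembl identifiers; the aligner, quantifier and annotation are not given in the sources used here. TPM keeps no depth, so no counting interval was made. Columns carry the numbers 1, 2 and 4 while the labels number replicates 1 to 3: 16 columns were matched to a labelled replicate and 8 (number 4) to their group only.

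Values were taken as log2(TPM + 1). Those genes that reached 1 TPM in 3 or more libraries (16062) entered the fit with limma 3.58.1 in R 4.3.3 (eBayes with trend, 1 mean per group over all 24 libraries), with Benjamini-Hochberg adjustment within each of 16 comparisons and a threshold of 0.05, tested first on simulated data. Comparisons that share mock or siFLuc groups are not independent. Deviations of same-numbered libraries from their group means correlated over genes (Pearson r of 0.115 to 0.508), most for number 4 in each comparison. With 3 libraries per group, a shift of number 4 alone also makes r positive for numbers 1 and 2. This r therefore cannot show that same-numbered libraries were pairs, and treating them as pairs is an assumption. A fit blocked on the library number, which the table's columns give, separately for each time, was an alternative. For comparisons of times this block leaves spread between numbers out of the error, so its p-values can be too small. Others were a pseudocount of 0.1, no filter, a mean of at least 5 TPM, median-of-ratios and quantile scaling, no trend, only the groups compared, numbers 1 and 2 only, and each library left out. All 10 genes were named, and of the 28 related genes those that passed in an IFN comparison. The members, lists and tests were chosen with earlier results of these data known. Some genes of the marker lists are not reported here.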

Additional observations from a re-analysis of the deposited data

Results flagged for a closer look

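The effect of the BOP1 siRNA on SRM at 8 h had opposite signs in mock and IFN cells for every library number. In mock cells the differences, siBOP1 minus siFLuc, were 0.04, 0.11 and 0.05 on the log2 scale, and with IFN they were -0.14, -0.05 and -0.10. The interaction was -0.16 ± 0.16 (limma adjusted p = 1), so the size of the difference between the effects was 0.16. The effect of the same siRNA on SMOX in mock cells was positive at 8 h (0.25, 0.04 and 0.32) and negative at 12 h (-0.09, -0.01 and -0.36) for every number. These means differ by 0.355, and that difference was not tested. Both cases were picked from the genes followed because their signs differed between groups. How many such cases chance would give, and how often they occur over all genes, was not counted. Neither case is therefore evidence that the siRNA effect differed.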

How the results depend on the processing

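The number of the 10 genes past the threshold moved by over 1.5 times as follows. Calls over all genes moved as well, and some are given, so a moved count is no result about the 10 genes alone. Counts for IFN in siFLuc cells are a description and no test. Without a filter, or without the trend, it was 0 for the BOP1 siRNA in mock at 12 h and for time with IFN in either siRNA, and so it was with only the groups compared, where IFN in siBOP1 at 12 h gave 1. For the siRNA in mock at 12 h, 107 of 33420 genes were called higher and 84 lower without a filter, against 145 and 112 of 16062 in the main fit. For IFN in siBOP1 at 12 h, 961 of 16062 were higher and 673 lower with only the groups compared, against 1152 and 1218. For time in siFLuc with IFN, a mean of at least 5 TPM gave 3 and median-of-ratios 2. Over all genes these called 412 higher and 127 lower of 10601, and 332 and 326 of 16062, against 455 and 112 in the main fit. Quantile scaling gave 5 and 7 for IFN in siFLuc at 8 h and 12 h, 1 for the siRNA at 8 h in mock and in IFN, and 3 and 2 for time with IFN in siFLuc and siBOP1. For IFN in siFLuc it called 1009 genes higher and 949 lower at 8 h, against 927 and 814 in the main fit. At 12 h it called 1227 and 1558, against 1134 and 1032. With the replicate block, IFN in siFLuc at 12 h gave 8, the siRNA 2 in mock at 8 h and 12 h and 2 with IFN at 8 h, and time 3 and 4 in siFLuc and 1 and 4 in siBOP1 (mock and IFN). Of all genes the block called 26.9%, then 8.49%, 7.66% and 8.81%, then 8.37%, 18.3%, 4.5% and 15%, in the same order. Blocked calls for time have the limit given above. Numbers 1 and 2 only, without a block, gave 7 for IFN in siBOP1 at 8 h, 1 for the siRNA with IFN at 8 h and 2 for time in siBOP1 with IFN. With the block, numbers 1 and 2 gave 6, 7 and 9 for IFN in siFLuc at 8 h and 12 h and siBOP1 at 8 h, 2, 2, 3 and 1 for the siRNA, and 3, 4, 2 and 2 for time. For IFN in siBOP1 at 8 h, the main fit called 962 of 16062 genes higher and 1464 lower. Numbers 1 and 2 called 1306 and 2189 without the block and 1425 and 2751 with it. Leaving out 1 library gave 2 to 3, 3 to 5, 3 to 4 and 2 to 6 for IFN, 0 to 1 for the siRNA in mock at 12 h, and 0 to 2 and 0 to 1 for time with IFN in siFLuc and siBOP1. For IFN in siBOP1 at 12 h, calls over all genes then ran from 876 to 1117 higher and from 665 to 1448 lower. The change of OAZ1 with IFN in siBOP1 at 8 h turned to 0.09 under median-of-ratios, the 1 reversal. The cause of these shifts was not tested. Smaller moves include IFN in siBOP1 at 12 h, from 7 to 5 without a filter or without the trend and to 6 with median-of-ratios or quantile scaling. Of 58 results named by gene, values with 1 library left out kept direction and side of the threshold in 297 cases, lost it in 45 and gained it in 6. Other settings kept it in 472, lost it in 34 and gained it in 73. TPM holds no depth, so what depth limits is unknown.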
